A study of Mus musculus with 17 samples.

Results

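Vipr2, Wdr60, Esyt2, Ncapg2 and Ptprn2 are 5 protein-coding genes that lie in this order on mouse chromosome 12. A further gene annotated as protein-coding, Gm11027, lies between Wdr60 and Esyt2. The 5 genes were taken as a list of neighbours by their Ensembl identifiers in the GENCODE M21 annotation (GRCm38) out of 46073 genes in each file. The rule that lists them uses position and no value, but they were picked with earlier results of these data known. All 5 passed the filter on low values, as 5 of the 19186 genes tested. In 5 libraries, the 3 of doxycycline-treated mice and 1 of each untreated group, Wdr60, Esyt2, Ncapg2 and Ptprn2 were higher and Vipr2 was lower than in the 10 other cortical libraries. Between the labelled groups, Vipr2 was the one member that passed the test, and it did so in 1 of the 3 comparisons.

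RNA with polyA tails was sequenced from frontal cortex, and the mice were male FVB/N. The dTgDox mice (n = 3) carried both transgenes of the dTg-211 cross and received doxycycline for 4 days. The dTg mice (n = 7) carried both transgenes without doxycycline, and the Ct mice (n = 6) carried the CamK driver without the miR-211 transgene. By these group labels every mouse compared carried the driver, with the exception that 1 library also bears a label without it (below). In such a Tet-off pair the driver makes a transactivator in forebrain excitatory neurons, the transactivator switches on the responder (here the microRNA miR-211), and doxycycline blocks it. No Ct mice were given doxycycline, so effects of the drug and of switching off the responder cannot be told apart.

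A further label, NTg, stood for a mouse that had the miR-211 responder but not the CamK driver. Its file held the same values as dTg replicate 1 for all 46073 genes, and its first line also gives a dTg name, so the labels do not settle whether this mouse carried the driver. That library was counted once, as dTg replicate 1, so 17 files gave 16 distinct libraries and no comparison used NTg. Its summed level of 15 cerebellar markers was 4471 FPKM, against at most 257.8 FPKM in any other library. Its values are therefore given apart in the library-by-library pattern below. The dTg means, SDs and fits below still include it unless stated, so they are not of cortical libraries alone. FPKM is a level per length of transcript, scaled to the number of mapped fragments. Total FPKM was 595615 to 695518 and 15762 to 16085 genes per library reached 1 FPKM. Read depth is unknown, since the FPKM values kept no recoverable read counts. The labels do not say that samples of 1 group came from separate litters or preparations, so the p-values measure the spread between these samples.

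As background, a transgene that integrates into a chromosome can delete, duplicate or re-regulate the genes at its landing site. A widely used Camk2a-tTA driver line has been reported to carry its transgene on chromosome 12, at a deletion that touches these 5 genes. The labels do not name the driver line of these mice, and RNA levels of genes do not show where a transgene lies, so the site itself was not tested. The 5 genes have unrelated roles. Vipr2 encodes VPAC2, a receptor for the neuropeptides VIP and PACAP that raises cyclic AMP and is best known from the suprachiasmatic clock. Wdr60 encodes an intermediate chain of dynein-2, the motor of return transport in cilia. Esyt2 encodes an extended synaptotagmin, which tethers the endoplasmic reticulum to the plasma membrane and transfers lipids. Ncapg2 is a subunit of condensin II, which compacts chromosomes. Ptprn2 encodes phogrin, a catalytically weak phosphatase-like protein of dense-core secretory vesicles.

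In GRCm38, Vipr2 (ENSMUSG00000011171) occupied chr12:116077726-116146261 on the plus strand, and Wdr60 (ENSMUSG00000042050) chr12:116206262-116263022 on the minus strand. Esyt2 (ENSMUSG00000021171) followed at chr12:116281196-116391050, Ncapg2 (ENSMUSG00000042029) at chr12:116405402-116463731 and Ptprn2 (ENSMUSG00000056553) at chr12:116485720-117276849, all on the plus strand. The gaps between successive members were 60, 18.2, 14.4 and 22.0 kb. The block from the start of Vipr2 to the end of Ptprn2 spanned 1199 kb, of which Ptprn2 alone took 791.1 kb.

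The promoters of 3 members are shown because Vipr2 stood opposite to Esyt2 and Ncapg2 in the libraries, while Esyt2 and Ncapg2 had the most alike profiles of any pair of members. Each is 300 bases of the RefSeq table for GRCm38.p6, 250 before and 50 after the annotated start, on the plus strand, 5′ to 3′. The Vipr2 promoter lies at chr12:116077476-116077775, that of Esyt2 at chr12:116280972-116281271 and that of Ncapg2 at chr12:116405186-116405485. Capitals mark the GC box GGGCGG and the core TGACG of the cyclic AMP response element, on either strand (CCGCCC and CGTCA on the other).
Vipr2: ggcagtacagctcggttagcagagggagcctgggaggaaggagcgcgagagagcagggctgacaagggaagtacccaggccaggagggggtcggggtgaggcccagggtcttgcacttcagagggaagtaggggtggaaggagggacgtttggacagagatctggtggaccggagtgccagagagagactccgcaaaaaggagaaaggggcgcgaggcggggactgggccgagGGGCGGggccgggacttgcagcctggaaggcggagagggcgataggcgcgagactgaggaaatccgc
Esyt2: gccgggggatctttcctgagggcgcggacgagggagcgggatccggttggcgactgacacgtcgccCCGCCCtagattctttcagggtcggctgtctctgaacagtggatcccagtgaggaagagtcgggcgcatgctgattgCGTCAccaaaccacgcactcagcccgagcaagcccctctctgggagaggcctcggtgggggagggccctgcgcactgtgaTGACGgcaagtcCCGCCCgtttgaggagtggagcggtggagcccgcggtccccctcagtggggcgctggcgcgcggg
Ncapg2: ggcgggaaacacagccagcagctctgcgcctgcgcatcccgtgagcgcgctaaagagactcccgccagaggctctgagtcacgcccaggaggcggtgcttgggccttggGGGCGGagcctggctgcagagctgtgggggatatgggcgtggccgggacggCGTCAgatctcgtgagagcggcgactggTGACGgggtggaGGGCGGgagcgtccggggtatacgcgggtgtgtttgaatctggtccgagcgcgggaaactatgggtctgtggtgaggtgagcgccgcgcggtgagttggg

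These promoters held more CpG than the median promoter. The Vipr2 window held 18 CpG, that of Esyt2 28 and that of Ncapg2 30, against a median of 7 over 32851 mouse promoters of this length. Fewer CpG were held by 70.3% of those promoters than by Vipr2, by 85.8% than by Esyt2 and by 88.3% than by Ncapg2. The windows of Wdr60 and Ptprn2, matched in the same table, held 19 and 24 CpG. The core TGACG occurred at 2 places in the Esyt2 window and 2 in that of Ncapg2, and in none of the other members' windows. It was present in 20.81% of all such promoters. GC boxes were found once in the Vipr2 and Ptprn2 windows, at 2 places in those of Esyt2 and Ncapg2, and not in that of Wdr60, against 35.66% of all promoters holding one. The letters CCAAT, present in 37.41% of promoters, occurred on neither strand in any of the 5 windows. A match of letters is a description and not a site of binding.

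Vipr2, the VIP and PACAP receptor, had 0.268, 0.217 and 0.838 FPKM in the dTgDox libraries. In dTg its lowest, median and highest values were 0.304 FPKM (replicate 7), 4.87 and 12.8 FPKM, and in Ct they were 1.37 FPKM (replicate 2), 6.07 and 12.8 FPKM. The dTgDox libraries were all below every Ct library, while dTg replicate 7 lay among the dTgDox values. Means were 0.44 ± 0.34 FPKM in dTgDox (SD, n = 3), 5.26 ± 4.12 FPKM in dTg (SD, n = 7) and 6.38 ± 4.31 FPKM in Ct (SD, n = 6). Apart from the low libraries the gene varied widely, by a factor of 6.73 among the 10 other cortical libraries, whereas Esyt2 varied there by a factor of 1.19. In a piece of tissue, fewer cells of a type and less RNA per cell cannot be told apart.

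Wdr60, the dynein-2 chain, had 4.09, 4.20 and 4.34 FPKM in dTgDox. In dTg it ranged from 1.99 FPKM through a median of 2.80 to 4.92 FPKM in replicate 7, and in Ct from 2.19 FPKM through 2.45 to 5.11 FPKM in replicate 2. The highest library of all was thus a Ct library, and the next a dTg library. All others of dTg and Ct stayed at or under 3.09 FPKM. Group means were 4.21 ± 0.13 FPKM in dTgDox (SD, n = 3), 2.99 ± 0.91 FPKM in dTg (SD, n = 7) and 2.94 ± 1.11 FPKM in Ct (SD, n = 6).

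Esyt2, the membrane tether, had 12.0, 10.1 and 12.0 FPKM in dTgDox. Across dTg it ran from 5.39 FPKM through a median of 6.01 to 13.5 FPKM, the last in the cerebellum-marked replicate 1, with replicate 7 at 12.4 FPKM. In Ct it ran from 5.16 FPKM through 5.68 to 9.99 FPKM in replicate 2. The dTgDox libraries lay just above the highest Ct library, and the remaining libraries of dTg and Ct fell within 5.16 to 6.13 FPKM. Means were 11.4 ± 1.12 FPKM in dTgDox (SD, n = 3), 7.77 ± 3.55 FPKM in dTg (SD, n = 7) and 6.31 ± 1.83 FPKM in Ct (SD, n = 6).

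Ncapg2, the condensin II subunit, was low throughout, with 1.11, 0.827 and 1.0 FPKM in dTgDox. Its lowest, median and highest values were 0.407, 0.480 and 1.16 FPKM in dTg, where replicates 1 (1.16 FPKM) and 7 (1.06 FPKM) were high. The same 3 values in Ct were 0.522, 0.547 and 0.887 FPKM, the last in replicate 2. No other dTg or Ct library exceeded 0.645 FPKM. Its levels lay close to the filter of 0.5 FPKM, and the added 0.5 FPKM of the log scale draws its differences toward 0.

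Ptprn2, the vesicle protein and by far the most abundant member, had 77.4, 71.0 and 75.1 FPKM in dTgDox. In dTg it reached from 26.4 FPKM in replicate 1, the lowest of all libraries, through a median of 47.8 to 98.2 FPKM in replicate 7. In Ct the lowest, median and highest values were 38.4, 43.2 and 90.3 FPKM, the last in replicate 2. Both dTg replicate 7 and Ct replicate 2 exceeded all 3 dTgDox libraries. On the FPKM scale, which is per length, Ptprn2 had the highest mean level of the 5 members in every group and Esyt2 the next. Vipr2 came next in dTg and Ct and was last in dTgDox.

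**Figure D1:**
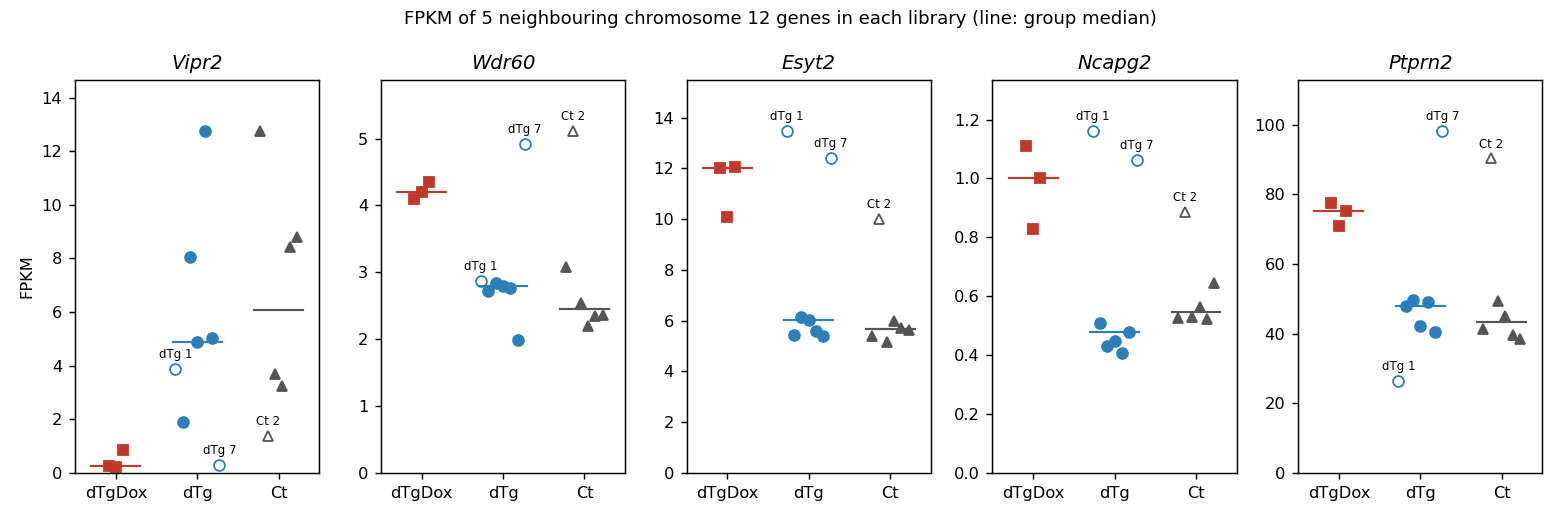
FPKM (linear axes from 0) of the 5 genes in each of the 16 distinct libraries, 1 panel per gene and 1 point per library, with a line at each group's median and open points for dTg replicates 1 and 7 and Ct replicate 2. The 3 dTgDox libraries, dTg replicate 7 and Ct replicate 2 are high for Wdr60, Esyt2, Ncapg2 and Ptprn2 and low for Vipr2.

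Set against the median of the Ct libraries, the same 5 libraries stood out by similar factors in the 4 higher genes. Ct replicate 2 had 2.09 times the Ct median of Wdr60, 1.76 times that of Esyt2, 1.62 times that of Ncapg2 and 2.09 times that of Ptprn2. For dTg replicate 7 the factors were 2.01 for Wdr60, 2.18 for Esyt2, 1.95 for Ncapg2 and 2.27 for Ptprn2. The dTgDox libraries had 1.67 to 1.77 times the Ct median of Wdr60, 1.77 to 2.12 times that of Esyt2, 1.51 to 2.03 times that of Ncapg2 and 1.64 to 1.79 times that of Ptprn2. Vipr2 went the other way, at 0.226 of the Ct median in Ct replicate 2, 0.050 in dTg replicate 7 and 0.036 to 0.138 in the dTgDox libraries. These libraries were singled out by their values in these genes, so the contrast is a description and was not tested.

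**Figure D2:**
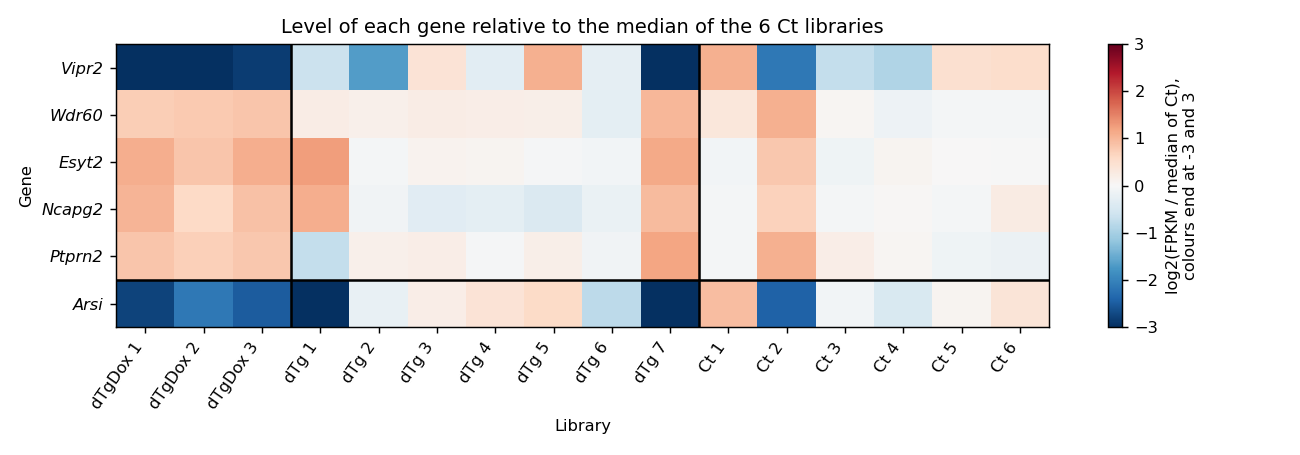
Levels of the 5 genes and of Arsi as log2 of the ratio to each gene's Ct median, with genes in rows, the 16 distinct libraries in columns and colours that end at -3 and 3. dTg replicate 7 and Ct replicate 2 lie on the same side of 0 as the 3 dTgDox libraries in all rows, with Vipr2 less low in Ct replicate 2 (0.226 of the Ct median), and dTg replicate 1 is high in Esyt2 and Ncapg2 and low in Ptprn2 and Arsi.

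For each of the 5 genes, dTgDox replicates 1 to 3, dTg replicate 7 and Ct replicate 2 lay on one side of the 10 other libraries, with dTg replicate 1 set aside. Of all genes tested, 40 (0.208%) had these 5 libraries above the 10 others and 26 (0.136%) had them below. The gap between the 2 sets was widest among the members for Esyt2, whose lowest value in the 5 libraries was 1.63 times its highest value in the 10. It was 1.43 times for Ptprn2, 1.33 times for Wdr60 and 1.28 times for Ncapg2. For Vipr2, the lowest of the 10 was 1.38 times the highest of the 5. Of the 66 genes with this order, 9 lay on chromosome 12, namely the 5 members, Serpina3e-ps, Serpina3m, Serpina3n and Gpr22. The share of all tested genes on that chromosome was not counted, so no excess is read from the 9. A gap of at least 1.2 times was found in 10 of the 66, the 5 members among them. The other genes with such a gap were Arsi, Serpina3e-ps, Gm14131, Dpp4 and Serpina3m. For Serpina3e-ps, Gm14131 and Serpina3m both edges of the gap lay under the 0.5 FPKM of the filter, as did the lower edge for Arsi. As the libraries were picked on the members, the members' share of these counts follows in part from that choice.

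The library with the cerebellar markers, dTg replicate 1, did not keep to either side. Its 13.5 FPKM of Esyt2 and 1.16 FPKM of Ncapg2 were the highest of all libraries. Its 2.88 FPKM of Wdr60 lay among the low libraries and its 26.4 FPKM of Ptprn2 below all of them, while its 3.88 FPKM of Vipr2 lay among the high ones.

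With dTg replicate 1 set aside, the 5 libraries with the highest Esyt2 had the lowest Vipr2. The ratio of Vipr2 to Esyt2 FPKM was 0.022 to 0.070 in the dTgDox libraries, 0.025 in dTg replicate 7 and 0.137 in Ct replicate 2. It was 0.288 in dTg replicate 1 and 0.349 to 2.37 in the 10 other libraries, so the 5 named libraries held the 5 lowest ratios. Among those 10, Esyt2 stayed nearly level while Vipr2 spanned 1.90 to 12.8 FPKM. The opposite order therefore describes 2 sets of libraries and not a graded relation within the 10.

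**Figure D3:**
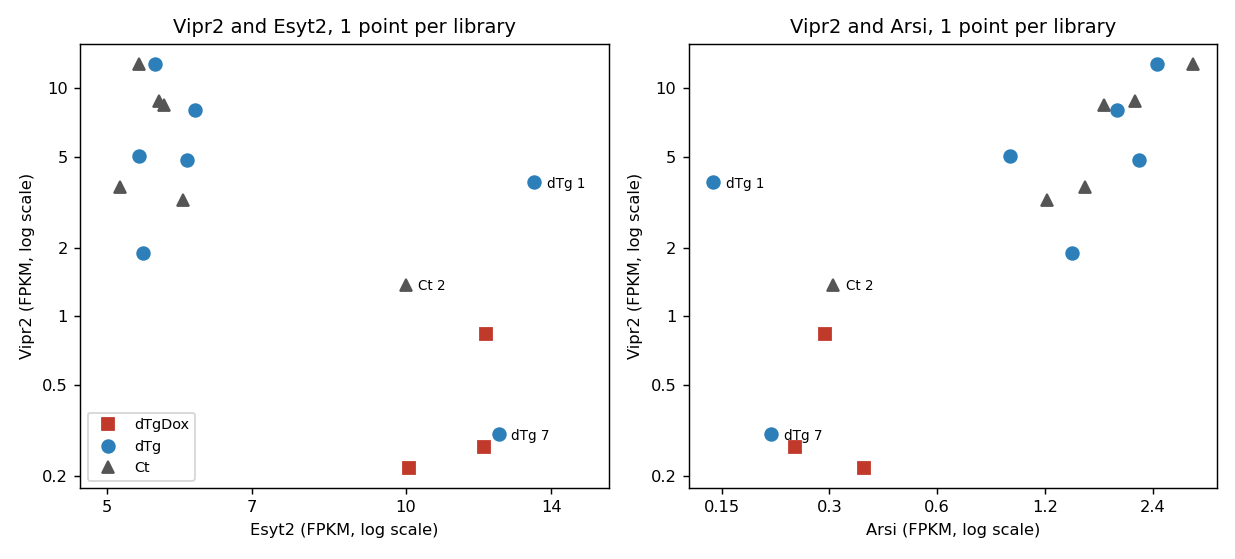
Vipr2 (FPKM, log scale) against Esyt2 (left) and Arsi (right), 1 point per library, with dTgDox, dTg and Ct marked. The 3 dTgDox libraries, dTg replicate 7 and Ct replicate 2 are low in Vipr2 and Arsi and high in Esyt2, and dTg replicate 1 lies apart.

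Likeness of profile was measured as the root mean square distance between standardised log2 values over the 15 libraries other than dTg replicate 1, where 0 means the same profile. Esyt2 and Ncapg2 were each other's nearest gene among all 19186 (distance 0.343). Wdr60 and Ptprn2 were likewise each other's nearest (0.355), and Esyt2 was next to Ptprn2 at 0.378. Among non-members, Prag1 came closest to Wdr60 (0.438), Gm12446 to Ptprn2 (0.499) and Ramp2 to Ncapg2 (0.535). To the mirror image of the Vipr2 profile, Esyt2 ranked 6, Ncapg2 9, Ptprn2 11 and Wdr60 129 of all genes. The distances are descriptions, over libraries whose tissue markers differ as given below. The members were picked with earlier results of these same libraries known. Their ranks, the mirrored ones included, follow in part from that choice and are no separate support for a shared pattern.

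The gene nearest to Vipr2 itself was Arsi (distance 0.381), ahead of Frmd3 (0.550) and Fam135a (0.552). Arsi encodes arylsulfatase I, a sulfatase, and lies on chromosome 18, 7.1 kb from Camk2a, the gene whose promoter drives many forebrain transgenes. Arsi had 0.241, 0.375 and 0.292 FPKM in dTgDox, 0.207 FPKM in dTg replicate 7 and 0.307 FPKM in Ct replicate 2, against 0.957 to 3.12 FPKM in the 10 other libraries. Its gap of 2.55 times was wider than that of any member, but its low values all lay under the 0.5 FPKM of the filter. Since read depth is unknown, the precision of this gap cannot be given. In the group comparisons Arsi did not pass the test, with a log2 difference of -1.31 (SE 0.51, limma adjusted p = 0.13) between dTgDox and Ct. Camk2a levels overlapped, at 714 ± 51.7 FPKM in dTgDox (SD, n = 3), 688 ± 340 FPKM in dTg (SD, n = 7) and 758 ± 115 FPKM in Ct (SD, n = 6). Without replicate 1, dTg had 798 ± 192 FPKM of Camk2a (SD, n = 6).

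Between dTgDox and Ct, Vipr2 fell and the other 4 members did not pass the test. Fits were made with limma on log2(FPKM + 0.5) over all genes tested, with two-sided p-values adjusted by the Benjamini-Hochberg method at 0.05, and differences are on that scale. The log2 difference of Vipr2 was -2.64 (SE 0.75, adjusted p = 0.044), lower in 3 of 3 dTgDox libraries than in any Ct library. Esyt2 had 0.83 (SE 0.29, adjusted p = 0.091), Ptprn2 0.62 (SE 0.31, adjusted p = 0.27), Wdr60 0.50 (SE 0.23, adjusted p = 0.20) and Ncapg2 0.42 (SE 0.20, adjusted p = 0.24). Thus 1 of 5 members was called, against 7.84% of all genes (4.45% higher and 3.39% lower). Before adjustment 3 of 5 had p under 0.05, against 22.5% of all genes. The groups did not overlap for Vipr2, lower, and for Esyt2, higher, where 11.7% of all genes were lower and 11.5% higher without overlap.

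The Vipr2 call rests on a narrow margin. The dTgDox libraries that were low in Vipr2 also had hippocampal markers summing to 410.9 to 458.7 FPKM, against 112.7 to 150.3 FPKM in Ct, whose part in the difference was not tested. It held in 5 of 16 fits that left out 1 library in turn, with adjusted p of 0.016 to 0.16, and ended when Ct replicate 1, 3, 4, 5 or 6, dTg replicate 2, 4 or 6, or any dTgDox replicate was left out. Without Ct replicate 2, both Esyt2 (log2 difference 0.96) and Wdr60 (0.66) passed at an adjusted p of 0.0498. Without dTg replicate 1, which enters the shared estimate of the spread, Esyt2 passed with the same 0.83 (adjusted p = 0.021).

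Between dTgDox and dTg, none of the 5 members passed the limma test, although 8.01% of all genes did (4.73% higher and 3.28% lower). The log2 difference was -2.26 for Vipr2 (SE 0.73, adjusted p = 0.073), 0.65 for Ptprn2 (SE 0.31, adjusted p = 0.22) and 0.61 for Esyt2 (SE 0.28, adjusted p = 0.20). For Wdr60 it was 0.47 (SE 0.22, adjusted p = 0.23) and for Ncapg2 0.41 (SE 0.20, adjusted p = 0.22). At an unadjusted p under 0.05 there were 2 of 5 members, Vipr2 and Esyt2, against 22.7% of all genes. The groups overlapped for all 5, since dTg replicate 7 shared the dTgDox side, while 7.73% of all genes were higher and 5.51% lower without overlap. Left out of the fit, single dTg libraries decided calls. Vipr2 passed without replicate 7 (-2.67, adjusted p = 0.018), and Esyt2 (0.76, adjusted p = 0.035) and Ncapg2 (0.51, adjusted p = 0.045) passed without replicate 1.

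Between dTg and Ct, no member differed beyond the spread of the libraries. Log2 differences were -0.38 for Vipr2 (SE 0.59, limma adjusted p = 0.96), 0.22 for Esyt2 (SE 0.22), 0.03 for Wdr60 (SE 0.18), 0.00 for Ncapg2 (SE 0.16) and -0.04 for Ptprn2 (SE 0.25). None of the 5 members and 0% of all genes passed, higher or lower. None of the members and 2.5% of all genes had an unadjusted p under 0.05. All 5 members overlapped between the groups, where 0.0469% of all genes were higher and 0.0156% lower without overlap. Each of these groups held 1 of the libraries that stood apart. The 2 dTgDox comparisons share the dTgDox libraries, so their values for a member are not independent of each other.

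**Figure D4:**
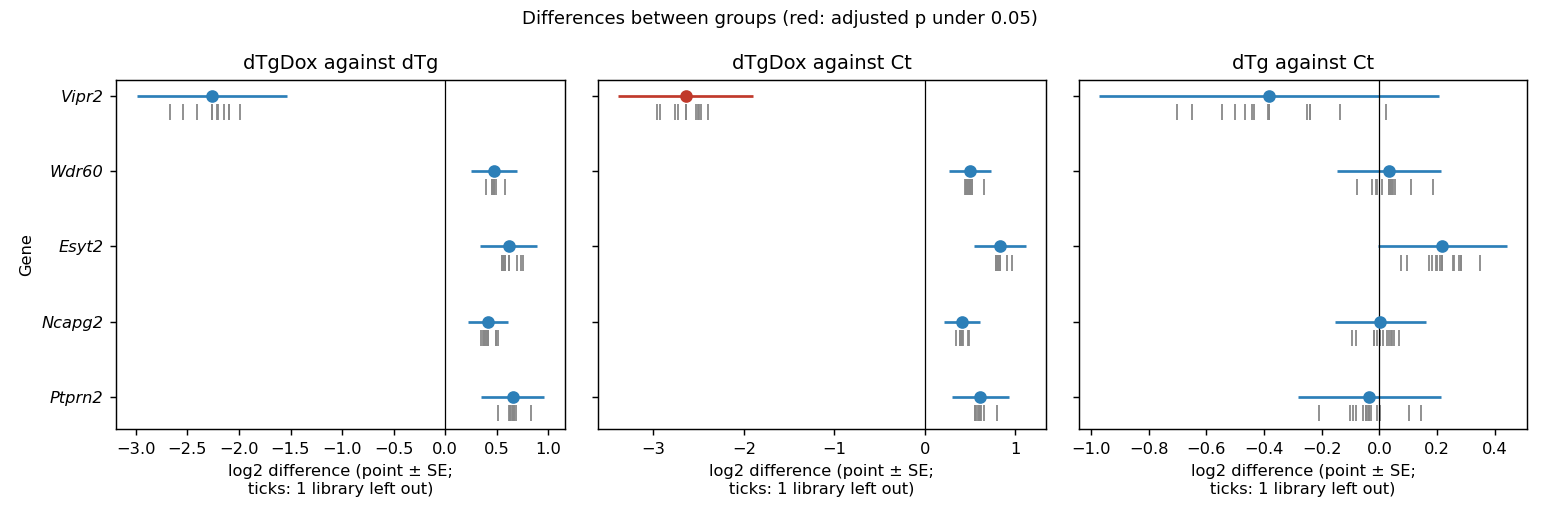
Log2 differences of the 5 genes (points, with SE as bars) in each of the 3 comparisons, with ticks for the fits that left out 1 library and red where the adjusted p was under 0.05. The axes differ between panels, Vipr2 in dTgDox against Ct (-2.64) is the one red point, and the ticks of dTg against Ct fall on both sides of 0 for all genes but Esyt2.

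Within 3 Mb of the block, 24 further genes passed the filter, 16 before Vipr2 and 8 after Ptprn2. None of these 24 was called higher in any of the 3 comparisons, where 4.73% (against dTg) and 4.45% (against Ct) of all genes were higher in dTgDox. Zfp386, a zinc-finger gene 14.4 kb before Vipr2, had 10.05 ± 1.90 FPKM in dTgDox (SD, n = 3), 12.8 ± 2.0 FPKM in dTg (SD, n = 7) and 12.7 ± 2.0 FPKM in Ct (SD, n = 6), a log2 difference of -0.34 against dTg (SE 0.15, adjusted p = 0.19) and -0.32 against Ct (SE 0.15, adjusted p = 0.23). Rapgef5, an exchange factor for Rap proteins 239.6 kb after Ptprn2, had 19.6 ± 1.12 FPKM in dTgDox (SD, n = 3), 16.2 ± 5.66 FPKM in dTg (SD, n = 7) and 18.0 ± 1.37 FPKM in Ct (SD, n = 6), and did not pass either test. Without replicate 1, dTg had 18.2 ± 1.81 FPKM of Rapgef5 (SD, n = 6). The pseudogenes Gm9260 and Gm7019 before the block and the genes Cdca7l and Dnah11 after it did not pass in any comparison.

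Lower among the 24 flanking genes were 1 against dTg and 2 against Ct, namely Ighg2c in both and Tmem196 against Ct, where 3.28% and 3.39% of all genes were lower. Ighg2c, an immunoglobulin constant region 2789 kb before Vipr2, had 0.204, 0.357 and 0.166 FPKM in dTgDox, against 0, a median of 2.47 and at most 3.6 FPKM in dTg and 2.09 to 4.99 FPKM in Ct. It fell by 1.67 against dTg (SE 0.49, adjusted p = 0.048) and by 2.16 against Ct (SE 0.50, adjusted p = 0.016). Tmem196, a membrane protein gene 2669 kb after Ptprn2, had 4.48, 5.91 and 3.92 FPKM in dTgDox and 11.9 to 19.9 FPKM in Ct and fell by 1.59 (SE 0.46, adjusted p = 0.0497). In both genes Ct replicate 2 and dTg replicate 7 lay with their own groups and not with dTgDox. The 24 flanking genes had a median log2 difference of -0.14 between dTgDox and dTg and of -0.18 between dTgDox and Ct, against -0.01 over all genes in each.

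Inside the block or across its end, 12 further annotated genes are listed in the files and 4 passed the filter, namely Gm11027, Gm6750, Gm10421 and Gm5441. None of these 4 passed in any comparison. Gm6750, Gm10421 and Gm5441 overlap Ptprn2 on the opposite strand, and since no source used here states strand-aware counting, their reads and those of Ptprn2 cannot be told apart. Gm10421 ranged from 0 to 30.3 FPKM over the libraries. Its mean was 1.63 ± 2.62 FPKM in dTgDox (SD, n = 3), 7.05 ± 10.6 FPKM in dTg (SD, n = 7) and 2.64 ± 2.82 FPKM in Ct (SD, n = 6).

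**Figure D5:**
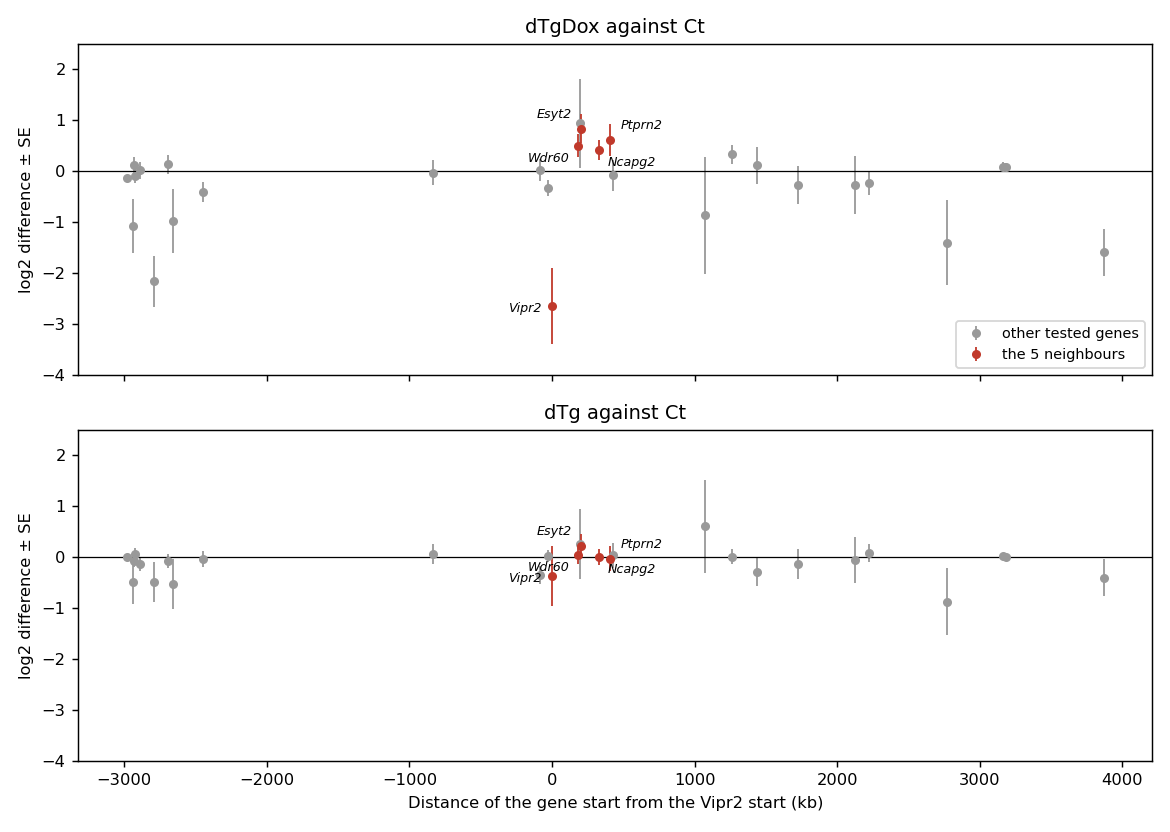
Log2 differences with SE of the tested genes along chromosome 12 by distance of their start from the start of Vipr2 in kb (microRNA genes left out), for dTgDox against Ct (top) and dTg against Ct (bottom), with the 5 members in red. At the top Vipr2 lies at -2.64 and the other 4 members lie above 0, and at the bottom the members lie between -0.38 and 0.22.

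Tissue composition was read from marker lists beside these results. Of 15 hippocampal markers, 11 were called in each dTgDox comparison, and their summed level was 410.9 to 458.7 FPKM in dTgDox, 82.2 to 152.5 FPKM in dTg and 112.7 to 150.3 FPKM in Ct. The sum was 148.1 FPKM in dTg replicate 7 and 150.3 FPKM in Ct replicate 2. The 12 olfactory bulb markers summed to 116.5 to 127.2 FPKM in dTgDox, 66.9 to 443.6 FPKM in dTg and 137.8 to 629.1 FPKM in Ct. The 3 libraries with the highest sums were Ct replicate 1 (629.1 FPKM, with 12.8 FPKM of Vipr2), dTg replicate 3 (443.6 FPKM, with 8.07 FPKM of Vipr2) and Ct replicate 5 (394.3 FPKM, with 8.44 FPKM of Vipr2). The next highest sum was that of Ct replicate 2 (259.1 FPKM), which had the lowest Vipr2 of Ct at 1.37 FPKM. At lower sums, dTg replicate 5 (148.8 FPKM) had 12.8 FPKM of Vipr2 and Ct replicate 6 (172.1 FPKM) had 8.79 FPKM. A list of 6 genes of the suprachiasmatic nucleus, a known site of Vipr2, summed to 23.0 to 25.2 FPKM in dTgDox, 36.0 to 67.9 FPKM in dTg and 36.4 to 47.5 FPKM in Ct, with 45.7 FPKM in dTg replicate 7 and 46.5 FPKM in Ct replicate 2. None of these 6 was called in either dTgDox comparison, and their mean log2 level overlapped, at 1.012 to 1.253 in dTgDox, 0.997 to 1.24 in dTg and 0.995 to 1.404 in Ct. Of 5 astrocyte markers 2 were called in each dTgDox comparison, and their sum was 419.8 to 585.2 FPKM in dTgDox, 282.5 to 602.8 FPKM in dTg (at most 345.5 FPKM without replicate 1) and 252.1 to 339.0 FPKM in Ct. The 5 oligodendrocyte markers summed to 2494 to 3758 FPKM in dTgDox, 872.5 to 2413 FPKM in dTg and 964.6 to 2125 FPKM in Ct, and the 12 striatal markers to 108.6 to 144.4 FPKM in dTgDox, 138.0 to 555.6 FPKM in dTg and 169.7 to 1021 FPKM in Ct, with none of either list called. Choroid plexus markers summed to 1978 FPKM in dTgDox replicate 3, which had the highest Vipr2 of its group, and to 24.0 and 45.3 FPKM in the other dTgDox libraries. No marker of these lists was at 0 in every library of a group. The part of tissue composition in the members' levels was not tested.

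The partner genes of the members, from lists by known function, were counted next. The dTgDox libraries in these comparisons were those with the higher hippocampal markers given above, whose part in the calls was not tested. Over all genes, 8.01% were called in dTgDox against dTg and 7.84% in dTgDox against Ct, and the counts below stand beside those shares. Of 24 genes of VIP and PACAP signalling, 1 was higher and none lower in dTgDox against dTg, and 1 was higher and 2 lower in dTgDox against Ct. The higher gene was Ramp2, an accessory protein of peptide receptors. It had 31.9 ± 0.70 FPKM in dTgDox (SD, n = 3), 19.0 ± 3.28 FPKM in dTg (SD, n = 7) and 19.3 ± 3.88 FPKM in Ct (SD, n = 6). Its log2 difference against dTg was 0.75 (SE 0.15, limma adjusted p = 0.0082). Ramp2 was also 1 of the 66 genes with the order of libraries above. Ct replicate 2, dTg replicate 7 and the dTgDox libraries had at least 24.5 FPKM, and the 10 other cortical libraries at most 21.9 FPKM. Against Ct, Adcyap1, which encodes PACAP, fell by 1.41 (SE 0.41, adjusted p = 0.047), and Prkacb, a catalytic subunit of protein kinase A, fell by 0.69 (SE 0.18, adjusted p = 0.030). The ligand gene Vip had 15.2 ± 2.66 FPKM in dTgDox (SD, n = 3) and 31.2 ± 5.28 FPKM in Ct (SD, n = 6). In dTg, replicate 1 included, Vip had 28.8 ± 13.8 FPKM (SD, n = 7). Between dTgDox and Ct it did not pass (adjusted p = 0.63). The dTg libraries enter the shared estimate of the spread, so this result does not show that Vip was unchanged. The related receptors Vipr1 and Adcyap1r1 had log2 differences of -0.86 (adjusted p = 0.12) and -0.03 (adjusted p = 0.94) against Ct. The list's median was -0.04 against dTg and -0.10 against Ct.

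None of the 35 genes of dynein-2 and ciliary transport passed in any comparison, with a median log2 difference of -0.03 against dTg and -0.04 against Ct. Wdr34, the partner intermediate chain of Wdr60, had 0.03 against dTg (SE 0.20) and -0.14 against Ct (SE 0.20). The heavy chain gene Dync2h1 had -0.06 and -0.08 in the same comparisons.

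Of 28 genes of lipid transfer and contacts between endoplasmic reticulum and plasma membrane, 3 were higher and 2 lower in dTgDox against dTg, and 5 higher and 3 lower against Ct. The higher genes in both were Orai2 and Orai3, calcium channel subunits of the plasma membrane, and Stim2, a calcium sensor of the endoplasmic reticulum. Orai2 had 45.7 ± 0.81 FPKM in dTgDox (SD, n = 3), 22.7 ± 1.48 FPKM in dTg (SD, n = 7) and 24.4 ± 2.04 FPKM in Ct (SD, n = 6), a log2 difference of 1.0 against dTg (SE 0.07, adjusted p = 1.2e-06). Osbpl3, an oxysterol-binding protein, fell by 0.96 against dTg (SE 0.20, adjusted p = 0.0091), and Stim1, the other sensor, fell by 0.26 (SE 0.05, adjusted p = 0.0090). Against Ct alone, Gramd1c and Jph1 were also called higher and Osbpl8 lower. The paralogs of Esyt2 did not pass, with -0.29 for Esyt1 (SE 0.23) and 0.04 for Esyt3 (SE 0.17) against dTg. The median of the list was -0.07 in both comparisons.

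Among 10 condensin genes, Ncapd2, a subunit of condensin I, fell by 1.22 against dTg (SE 0.26, limma adjusted p = 0.0097) and by 1.16 against Ct (SE 0.26, adjusted p = 0.015), and none rose. The dTg group includes 31.0 FPKM of Ncapd2 in replicate 1, against at most 17.3 FPKM in the 10 other cortical libraries. Ct replicate 2 and dTg replicate 7 lay on the dTgDox side, with these 5 libraries at or under 11.52 FPKM and the 10 others at or above 11.75 FPKM. The condensin II partners of Ncapg2 did not pass, with log2 differences of 0.02 for Ncaph2 and -0.38 for Ncapd3 against dTg. Of 23 tested genes of dense-core vesicles none passed against dTg. Against Ct, Chgb, a granin of the vesicle core, rose by 0.51 (SE 0.14, adjusted p = 0.031) and Chga, another granin, fell by 0.56 (SE 0.16, adjusted p = 0.040). Ptprn, the paralog of Ptprn2, had -0.06 against dTg (adjusted p = 0.95) and -0.46 against Ct (adjusted p = 0.54). No gene of the 5 lists passed between dTg and Ct.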

How the data were processed

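Polyadenylated RNA of frontal cortex was sequenced from 1 end with the NEBNext kit, per the labels' protocols. The submitters' processing notes name TopHat2 and DESeq. The sources used here do not give versions, genome build, annotation or quantifier. The authors deposited 1 FPKM value per Ensembl gene and library. Single-exon genes showed no constant step in FPKM, so read counts were not recovered and no counting interval is given.

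Symbols and positions came from GENCODE M21 (GRCm38), which named 45139 identifiers and left 934 without a symbol. limma 3.58.1 (R 4.3.3) was fitted to log2(FPKM + 0.5) over genes that reached 0.5 FPKM in 3 or more of the 16 distinct libraries, with 1 mean per group and trended, robust empirical Bayes moderation, and was tested on simulated data. Tables and plots used Python 3.11.15, pandas 2.3.3 and matplotlib 3.10.9. The added 0.5 FPKM pulls differences of low genes toward 0. Alternatives changed the pseudocount, filter, scaling, moderation, samples in the fit, replicate block and each library.

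The members, the partner and marker lists and the tests were chosen with earlier results of these data known. Named genes are the members, the 3 nearest tested genes on each side, called flanking genes, the 3 nearest profiles of each member, and partners that were called or are a ligand, paralog or direct partner. Arsi, Camk2a and the outside genes of the library order were named after their values were seen.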

Additional observations from a re-analysis of the deposited data

Results flagged for a closer look

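Within a group of 4 to 10 libraries, a value was taken up here when its gap to the nearest other library exceeded Dixon's critical share of the group's range. Of 26 groups tested (the members and the named flanking genes in dTg and in Ct), 10 had such a value. Chance alone marks about 1 in 20 groups, but 6 of the 10 fall in libraries that were singled out by these same genes, so the count is a description. For the members, all were the highest library of the group. In dTg, replicate 7 stood apart with 4.92 FPKM of Wdr60 (next 2.88 FPKM) and 98.2 FPKM of Ptprn2 (next 49.6 FPKM). In Ct, replicate 2 stood apart with 5.11 FPKM of Wdr60 (next 3.09 FPKM), 9.99 FPKM of Esyt2 (next 5.97 FPKM), 0.887 FPKM of Ncapg2 (next 0.645 FPKM) and 90.3 FPKM of Ptprn2 (next 49.5 FPKM). No Vipr2 value was far enough from the others of its group.

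Among the flanking genes, dTg replicate 1, the library with the cerebellar markers, was lowest in Rapgef5 at 3.903 FPKM and highest in Dnah11 at 3.56 FPKM. Cdca7l was highest in dTg replicate 3 at 2.01 FPKM, and Ighg2c in Ct replicate 3 at 4.99 FPKM.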

How the results depend on the processing

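Each member was refitted under 25 alternatives, except Ncapg2, which gave no value under a filter of at least 1 FPKM in 8 libraries. Several of these (another filter or moderation, or a library outside the 2 groups left out) cannot move a difference, so unchanged signs count for little. Over all alternatives Vipr2 ranged from -2.93 to -1.83 in dTgDox against dTg and from -3.42 to -2.14 in dTgDox against Ct. The Vipr2 call between dTgDox and Ct ended with a pseudocount of 1 FPKM (-2.14, limma adjusted p = 0.055) and with no filter on low values (-2.64, adjusted p = 0.062), and Esyt2 passed when only these 2 groups were fitted (0.83, adjusted p = 0.013). Leaving out 1 library gave log2 differences of dTgDox against Ct of -2.96 to -2.40 for Vipr2, 0.44 to 0.66 for Wdr60 and 0.79 to 0.96 for Esyt2, and against dTg of -2.67 to -1.99 for Vipr2, 0.55 to 0.76 for Esyt2 and 0.35 to 0.51 for Ncapg2. Between dTg and Ct the signs were not settled. Ncapg2 turned to -0.021 with a pseudocount of 0.1 FPKM, -0.0086 with quantile normalisation and -0.0098 with median scaling, and leaving out 1 library gave -0.70 to 0.022 for Vipr2, -0.078 to 0.19 for Wdr60, -0.094 to 0.069 for Ncapg2 and -0.21 to 0.14 for Ptprn2. Genes called over the whole table were 694 (dTgDox against dTg) and 3378 (dTgDox against Ct) with only 2 groups fitted, 1 (dTg against Ct) with a pseudocount of 0.1, and 492 to 3596, 552 to 3758 and 0 to 1 in these comparisons with 1 library left out, against 1537, 1504 and 0. Causes of these shifts were not tested.

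The labels give replicate numbers but no pairing, and same-numbered libraries did not deviate together (correlations of -0.145 to 0.105 across genes). The fit with the replicate block kept only replicate numbers present in both groups. The dTgDox comparisons thus had 3 libraries per group, dTg replicate 1 among them, and dTg against Ct lost dTg replicate 7. The block and this cut in libraries were changed together, so their effects cannot be told apart here. With the replicate block, 0 genes were called in dTgDox against dTg, 766 in dTgDox against Ct and 1 in dTg against Ct. Vipr2 had -2.38 (adjusted p = 0.13) in dTgDox against Ct under the block, and in dTg against Ct the block gave 0.022 for Vipr2, -0.078 for Wdr60 and -0.080 for Ncapg2. Depth is unknown, so the precision of the low levels of Ncapg2, and of Vipr2 in dTgDox, cannot be given beyond the spread between libraries, and the dTgDox group has 3 libraries.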

Other observations

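Other genes with the same order of libraries included the serine protease inhibitor pseudogene Serpina3e-ps on chromosome 12, at 0.811 to 1.495 FPKM in dTgDox and 0 to 0.315 FPKM in dTg. In Ct it had 0 to 0.411 FPKM. Serpina3n, an acute-phase inhibitor of astrocytes that ends 11663 kb before Vipr2, had 37.8 ± 8.94 FPKM in dTgDox (SD, n = 3), 5.82 ± 2.92 FPKM in dTg (SD, n = 7) and 6.77 ± 2.09 FPKM in Ct (SD, n = 6). It rose by 2.75 against dTg (SE 0.42, limma adjusted p = 0.0010) and by 2.41 against Ct (SE 0.43, adjusted p = 0.0032). Ct replicate 2 (10.3 FPKM) and dTg replicate 7 (9.70 FPKM) lay just above dTg replicate 2 (8.40 FPKM). Both lay well below the dTgDox libraries (27.5 to 43.0 FPKM), unlike in the 4 higher members. Astrocyte markers summed to 419.8 to 585.2 FPKM in dTgDox and 252.1 to 339.0 FPKM in Ct. In dTg they summed to 282.5 to 602.8 FPKM, or to at most 345.5 FPKM without replicate 1. Hippocampal markers summed to 410.9 to 458.7 FPKM in dTgDox, 82.2 to 152.5 FPKM in dTg and 112.7 to 150.3 FPKM in Ct. The part of astrocyte and hippocampal content in the Serpina3n difference was not tested.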
